A study of Mus musculus with 9 samples.

Results

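The genes described here are 9 members of the transforming growth factor beta (TGF-β) signalling pathway, namely the ligand genes Tgfb1, Tgfb2 and Tgfb3, the receptor genes Tgfbr1 and Tgfbr2, the receptor-activated SMAD genes Smad2 and Smad3, and the feedback genes Smad7 and Skil. They were taken by gene symbol from the 46517 genes listed for every sample. All 9 were found, and all 9 passed the low-count filter in each comparison.

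RNA sequencing covered 9 cultures of duodenal organoids, which are epithelial structures grown from intestinal crypts in a protein gel, from wild-type C57BL/6J mice. The cells received adenoviral vectors, 50 particles for each, about 72 hours before RNA was taken. In each group 3 cultures were sequenced, labelled replicates 1, 3 and 4. Ad-GFP carried green fluorescent protein alone and served as control for the vector, while Ad-hHIF2 and Ad-hHIF1 carried human hypoxia-inducible factor (HIF) alpha subunits altered to resist degradation. All groups were kept at 5% oxygen in L-WRN conditioned medium, which supplies Wnt3a, R-spondin and Noggin, and this medium held 10 μM SB431542, an inhibitor of the TGF-β type I receptor kinase. The values below therefore come from cells with that inhibitor in the medium, Ad-GFP cultures included. The study calls the sequenced samples of a group biological replicates, but no source used here says of the sequenced cultures whether they came from separate mice, so the p-values measure the spread between these cultures.

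TGF-β ligands are secreted in a latent form, and once released they bind the type II receptor, which phosphorylates the type I receptor. The activated type I receptor phosphorylates SMAD2 and SMAD3, which enter the nucleus with SMAD4 and switch target genes on or off. Among the genes this switches on are brakes on the pathway itself, such as Smad7 and Skil. In the intestinal epithelium TGF-β is known for restraining proliferation and for promoting differentiation and matrix production.

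The library totals ran from 21722618 expected counts (Ad-GFP replicate 4) to 51119041 (Ad-hHIF2 replicate 3). The label check on the expressed factor gave 619.7 to 764.6 CPM for Epas1, the mouse gene for the HIF2 alpha subunit, in the Ad-hHIF2 samples, against 1.44 to 2.15 in the Ad-GFP samples; CPM are counts scaled to a common library size after TMM. Hif1a lay between 304.8 and 311.6 CPM in the Ad-hHIF1 samples and between 195.9 and 245.1 in the Ad-GFP samples (log2 fold change 0.49, edgeR adjusted p = 0.486), so the label of that group shows only weakly in this gene, and human transgene reads are seen only where they were assigned to the mouse gene. Reads of the satellite-like genes Gm10800 and Gm26870 made up 16.0% of the counts in Ad-hHIF1 replicate 3 and 0.433% to 4.28% in the other libraries. Of the general epithelial markers, Krt8 (997.2 to 1392 CPM) and Cdh1 (199.2 to 355.2 CPM) were high, but Epcam (1.43 to 3.77 CPM), Vil1 (3.32 to 5.03 CPM) and the stem cell markers Lgr5 (at most 1.2 CPM) and Olfm4 (at most 0.130 CPM) were low in all 9 samples, so the label of duodenal organoid is not carried by all of its markers. Of the 7 epithelial markers, Cdh1 rose (log2 fold change 0.53, edgeR adjusted p = 0.00313) and Epcam fell (-0.81, edgeR adjusted p = 0.0472) in Ad-hHIF2 against Ad-GFP, and the other 5 did not pass. Summed fibroblast markers (8 genes) lay between 10.2 and 19.1 CPM in the control and Ad-hHIF1 samples and between 10.02 and 13.2 in the Ad-hHIF2 samples. The 7 leukocyte markers summed to 10.2 to 17.3 CPM in any sample, of which Ptprc was lower in Ad-hHIF2 samples (at most 0.0692 CPM against at least 0.488 in Ad-GFP, edgeR adjusted p = 0.00472), while Cd68 had the opposite sign (log2 fold change 0.38 over Ad-GFP, edgeR adjusted p = 0.179, and 0.60 over Ad-hHIF1, edgeR adjusted p = 0.0374). The 4 stem cell markers summed to 3.16 to 3.55 CPM with Ad-hHIF2 and 6.37 to 12.4 CPM in the other samples, mostly Sox9, which fell by 1.63 on the log2 scale (Ad-hHIF2 against Ad-GFP, edgeR adjusted p = 0.0023), whereas Lgr5 lay higher in all Ad-hHIF2 samples without passing (1.84, edgeR adjusted p = 0.0714). Ascl2 did not pass the filter against Ad-GFP and was lower with Ad-hHIF2 than with Ad-hHIF1 (-4.49, edgeR adjusted p = 0.0316). The 5 endothelial markers summed to 1.13 to 1.78 CPM with Ad-hHIF2 and 1.56 to 3.12 in the other samples. The 3 smooth muscle markers summed to 0.415 to 0.523 CPM with Ad-hHIF2, 0.678 to 1.07 with Ad-GFP and 0.36 to 1.58 with Ad-hHIF1. The part of these cell types in the results below was not tested, and in bulk RNA fewer cells of a type and less RNA per cell cannot be told apart.

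Promoter sequences are shown for the receptor pair, whose transcripts moved in opposite directions with Ad-hHIF2, and for Tgfb1, the ligand whose difference between Ad-hHIF2 and Ad-hHIF1 passed the test in edgeR with TMM and filterByExpr. They are the 250 bases before the transcription start in the RefSeq annotation of GRCm38.p6, written 5′ to 3′ on the strand of the gene, with capitals marking the HIF core motifs ACGTG and GCGTG and the SMAD motif CAGAC on either strand. Tgfbr1 lies on the plus strand and its window is chr4:47352972-47353221, Tgfbr2 lies on the minus strand with chr9:116175364-116175613, and Tgfb1 lies on the plus strand with chr7:25686752-25687001.
Tgfbr1: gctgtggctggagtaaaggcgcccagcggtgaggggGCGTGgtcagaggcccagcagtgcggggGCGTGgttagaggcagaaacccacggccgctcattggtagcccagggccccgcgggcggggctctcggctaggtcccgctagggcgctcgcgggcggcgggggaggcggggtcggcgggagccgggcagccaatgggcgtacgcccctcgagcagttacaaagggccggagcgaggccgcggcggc
Tgfbr2: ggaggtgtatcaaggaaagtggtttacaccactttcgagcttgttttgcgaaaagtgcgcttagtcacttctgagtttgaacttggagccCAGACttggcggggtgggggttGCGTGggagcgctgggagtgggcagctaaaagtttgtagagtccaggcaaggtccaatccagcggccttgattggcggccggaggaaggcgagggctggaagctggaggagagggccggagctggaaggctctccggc
Tgfb1: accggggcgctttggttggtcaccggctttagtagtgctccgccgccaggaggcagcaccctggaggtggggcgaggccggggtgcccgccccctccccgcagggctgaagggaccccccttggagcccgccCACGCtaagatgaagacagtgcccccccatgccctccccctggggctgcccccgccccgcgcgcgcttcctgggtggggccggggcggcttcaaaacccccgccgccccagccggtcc
Tgfbr1 held 2 copies of GCGTG and no CAGAC, Tgfbr2 held 1 GCGTG and 1 CAGAC, and Tgfb1 held 1 GCGTG, written as its complement CACGC. A HIF core motif (ACGTG or GCGTG) stood in 38.6% and CAGAC in 42.2% of 32851 promoter windows of this length, so such matches are common. Of the other members, Smad3 held 2 GCGTG matches, and Tgfb2 (chr1:186705990-186706239, minus strand) held CACGTG, which reads as ACGTG on both strands and was counted as 2 overlapping matches, as well as 2 CAGAC. A second annotated start of Tgfbr1 (chr4:47385966-47386215, plus strand) held neither HIF motif and 1 CAGAC. A match describes the letters of the window and is no evidence of binding.

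The first question was what HIF2 did to transcripts of this pathway. In Ad-hHIF2 organoids Smad7 rose 2.33-fold over Ad-GFP, Tgfbr2 rose 1.25-fold and Tgfbr1 fell to 0.618 of its control level. The 3 ligand genes had higher means that did not pass the test, and Smad2, Smad3 and Skil stayed close to their control levels. By edgeR's quasi-likelihood test at an adjusted p below 0.05, 3 of 9 members changed (33.3%), against 29.5% of the 14987 genes tested: 2 rose, against 15.9% of all genes, and 1 fell, against 13.6%. With library totals as the only scale, 5 members rose and 0 fell (23.3% and 5.52% of all genes). On log2(TPM + 1) in limma 2 rose and 0 fell (6.74% of all genes passed). On log2(TPM + 0.1) 1 rose and 0 fell (7.4% of all genes passed). Only Smad7 also passed the 2-fold minimum (1 of 9, against 6.73% of all genes in either direction and 2.9% higher), so the number of changed members was close to the background and the description below rests on the single genes. In 5 of the 9 genes the samples of Ad-hHIF2 and Ad-GFP did not overlap, against 46.6% of all genes, and in 4 of these Ad-hHIF2 was the higher group, against 26.8%.

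**Figure D1:**
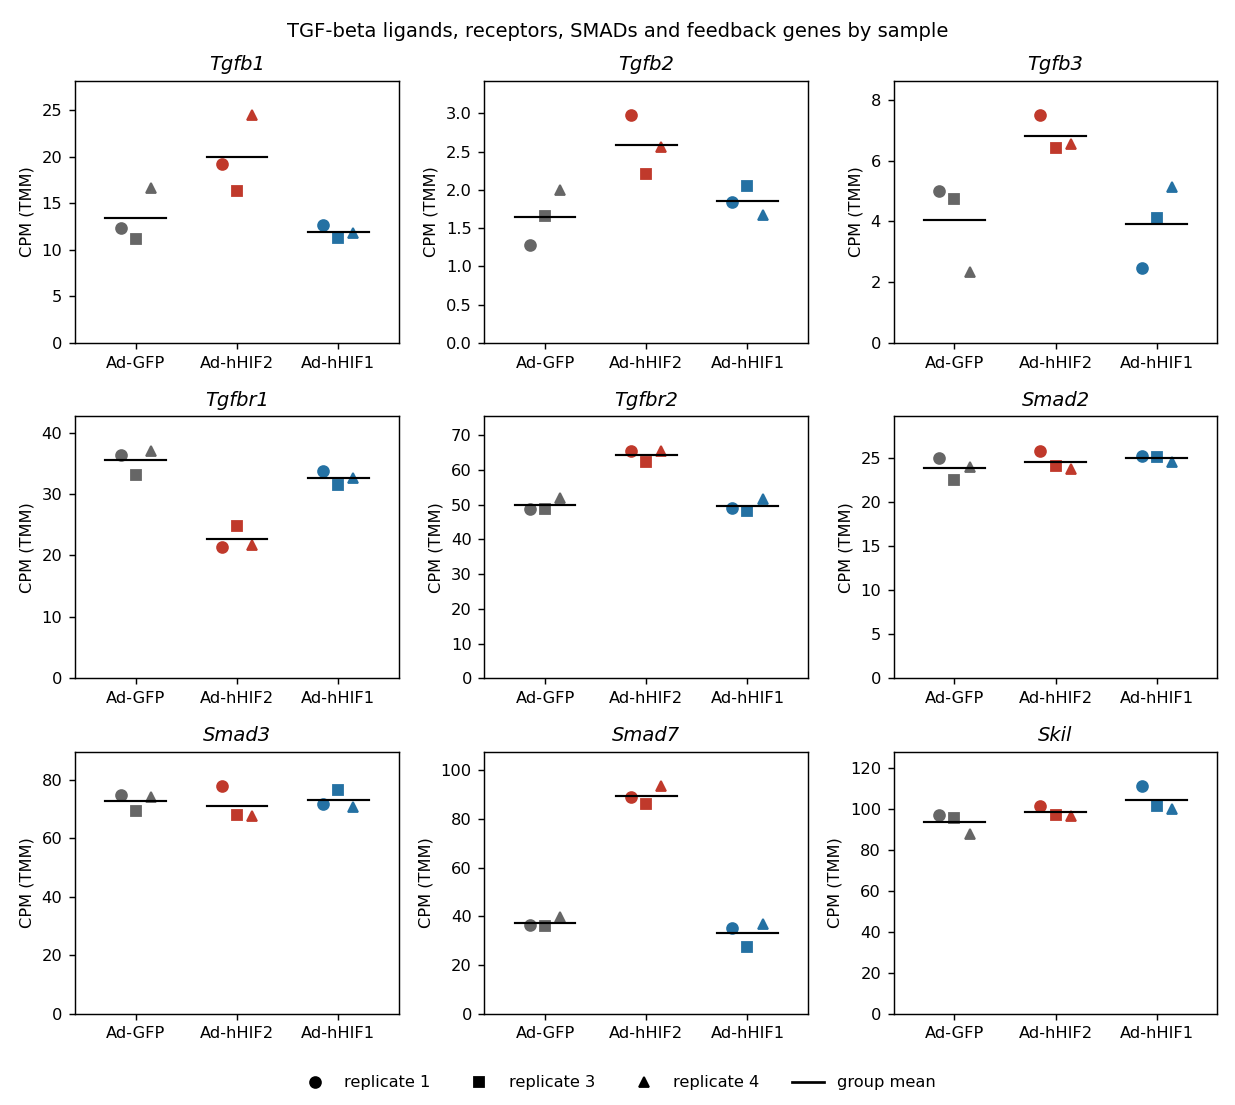
Normalized level (CPM after TMM scaling, linear axes from 0) of the 9 genes in each sample, with 1 symbol per replicate number and a bar at the group mean. The 3 Ad-hHIF2 samples stand apart above for Smad7 and Tgfbr2 and below for Tgfbr1, while Smad2 and Smad3 overlap in all groups.

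Among the ligands, Tgfb1, which encodes the most widely expressed isoform, measured 12.4, 11.2 and 16.7 CPM in Ad-GFP replicates 1, 3 and 4. It measured 19.2, 16.3 and 24.4 CPM in the Ad-hHIF2 samples and 12.7, 11.2 and 11.8 CPM in the Ad-hHIF1 samples. The lowest Ad-hHIF2 sample lay just under the highest Ad-GFP sample, and replicate 4 was the highest of both groups. The log2 fold change of Ad-hHIF2 over Ad-GFP was 0.54 ± 0.186 (SE, n = 3 per group, edgeR adjusted p = 0.0599). This call turned on the setting: without Ad-GFP replicate 4 the adjusted p was 0.0136, without Ad-hHIF2 replicate 3 it was 0.0436, DESeq2 gave 0.0186 and library totals gave 0.000501, whereas leaving out any other sample gave 0.0962 to 0.187. It passed in 6 of the 10 alternative settings that left out no sample. Among them were limma-voom (0.0455), edgeR on all 9 samples (0.0468) and edgeR with no count filter (1.13e-05). On log2(TPM + 1) and log2(TPM + 0.1) in limma it did not pass (0.0944 and 0.066). Against Ad-hHIF1 the 3 Ad-hHIF2 samples were all higher and the difference passed, with a log2 fold change of 0.72 ± 0.173 (SE, edgeR adjusted p = 0.0122). In limma it did not pass on log2(TPM + 1) (0.56, adjusted p = 0.121) or on log2(TPM + 0.1) (0.90, adjusted p = 0.0925).

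Tgfb2, the isoform best known from development of epithelial and mesenchymal tissues, was the scarcest of the 9 genes in CPM. It measured 1.27, 1.65 and 2.0 CPM with Ad-GFP, 2.98, 2.21 and 2.56 with Ad-hHIF2, and 1.84, 2.05 and 1.67 with Ad-hHIF1, on 41 to 129 counts per sample. All Ad-hHIF2 samples lay above all others, but the difference from Ad-GFP did not pass (log2 fold change 0.62 ± 0.264 SE, edgeR adjusted p = 0.111), nor did that from Ad-hHIF1 (0.46 ± 0.260 SE, edgeR adjusted p = 0.235). Over the settings tried, the change of Tgfb2 relative to Ad-GFP ran from 0.022 on log2(TPM + 1) to 0.89 with library totals, where it passed (edgeR adjusted p = 0.0351). Tgfb3, a ligand gene linked to epithelial fusion and wound repair, measured 5.01, 4.75 and 2.34 CPM with Ad-GFP, 7.5, 6.42 and 6.54 with Ad-hHIF2, and 2.48, 4.10 and 5.13 with Ad-hHIF1. Here too the Ad-hHIF2 samples were the highest 3 of the 9, with the Ad-GFP and Ad-hHIF1 samples interleaved. The log2 fold change over Ad-GFP came to 0.69 ± 0.243 (SE, edgeR adjusted p = 0.0641) and 0.78 ± 0.302 over Ad-hHIF1 (SE, edgeR adjusted p = 0.0853). Without Ad-GFP replicate 4, the lowest sample and the shallowest library, this change relative to Ad-GFP was smaller, at 0.45, while its adjusted p was 0.0412, and DESeq2 gave an adjusted p of 0.0218 and library totals 0.000492. Leaving out any other sample gave no call (edgeR adjusted p up to 0.163). On log2(TPM + 1) in limma the change was 0.24 (adjusted p = 0.0439), and on log2(TPM + 0.1) it did not pass (0.84, adjusted p = 0.0675). The difference from Ad-hHIF1 passed in DESeq2 (0.0358), in limma-voom (0.0436), with library totals (0.0369), with no count filter (0.00175) and without Ad-GFP replicate 4 (0.0402). On the TPM scales it did not (limma adjusted p = 0.177 and 0.171). Exons on the opposite strand overlap both genes in the GENCODE annotation, by 124 bases (Gm29491) in Tgfb2 and by 163 (Gm37804) and 257 bases (Gm48008) in Tgfb3, and as the strand of the libraries is not given, reads of the partners cannot be told apart.

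The receptors moved in opposite directions. Tgfbr1, the gene of the type I receptor whose kinase SB431542 blocks, measured 36.3, 33.1 and 37.1 CPM with Ad-GFP, 21.4, 24.7 and 21.7 with Ad-hHIF2, and 33.8, 31.5 and 32.6 with Ad-hHIF1. Each Ad-hHIF2 sample lay below every sample of the other groups. Relative to Ad-GFP the log2 fold change was -0.69 ± 0.0844 (SE, edgeR adjusted p = 0.000529), a control level 1.62 times that of Ad-hHIF2, and relative to Ad-hHIF1 it was -0.55 ± 0.0758 (SE, edgeR adjusted p = 0.000501). Relative to Ad-GFP the fall kept its call with each sample left out in turn (edgeR adjusted p from 0.00116 to 0.00481). It did not pass with library totals alone as the scale (-0.44, edgeR adjusted p = 0.0536). In limma it did not pass on log2(TPM + 1) (-0.12, adjusted p = 0.753) or on log2(TPM + 0.1) (-0.25, adjusted p = 0.695). The difference from Ad-hHIF1 did not pass on these scales either (adjusted p = 0.0742 in edgeR, 0.651 and 0.605 in limma). The expected counts of Tgfbr1 were not whole in every sample, so some of its reads were shared with other genes.

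Tgfbr2, which encodes the ligand-binding type II receptor, measured 48.9, 48.9 and 51.9 CPM with Ad-GFP and 65.6, 62.4 and 65.4 CPM with Ad-hHIF2. The Ad-hHIF1 samples stood at 49.0, 48.1 and 51.7 CPM and interleaved with the controls. The Ad-hHIF2 samples were all above the rest and lay close together. The rise was small beside that of Smad7, and its log2 fold change came to 0.32 ± 0.0688 over Ad-GFP (SE, edgeR adjusted p = 0.00864) and 0.35 ± 0.0628 over Ad-hHIF1 (SE, edgeR adjusted p = 0.00244). It held with each sample left out, with adjusted p-values from 0.00684 to 0.0428, but did not pass on either TPM scale in limma, where the log2 fold change was larger (0.50 with adjusted p = 0.212 on log2(TPM + 1), and 0.73 with adjusted p = 0.202 on log2(TPM + 0.1)). In mean CPM, Tgfbr2 went from 49.9 ± 1.75 to 64.4 ± 1.80 and Tgfbr1 from 35.5 ± 2.13 to 22.6 ± 1.83 (SD, n = 3).

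Of the receptor-activated SMADs, Smad2 measured 25.0, 22.5 and 23.9 CPM with Ad-GFP, 25.8, 24.0 and 23.7 with Ad-hHIF2, and 25.2, 25.1 and 24.6 with Ad-hHIF1. All 9 samples thus fell in one narrow band. The log2 fold change of Ad-hHIF2 over Ad-GFP was -0.00 (95% interval -0.17 to 0.17, edgeR adjusted p = 0.972), and that of Ad-hHIF1 was 0.04 (95% interval -0.13 to 0.22, edgeR adjusted p = 0.880). Smad3, the SMAD that binds CAGAC-type sites directly, measured 75.0, 69.3 and 74.0 CPM with Ad-GFP, 78.0, 67.9 and 67.7 with Ad-hHIF2, and 71.8, 76.6 and 70.6 with Ad-hHIF1. Again the groups overlapped, with log2 fold changes of -0.08 (95% interval -0.26 to 0.11) for Ad-hHIF2 and -0.02 (95% interval -0.20 to 0.16) for Ad-hHIF1 over Ad-GFP. The intervals exclude a change of 2-fold in either direction, but both values were above 0 with library totals and on the TPM scales, which also raised the median of all genes from -0.01 to 0.24 with library totals and to 0.12 and 0.30 on the TPM scales.

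Smad7, the inhibitory SMAD that occupies the activated type I receptor and recruits ubiquitin ligases to it, was the member with the largest change. It measured 36.3, 35.9 and 39.5 CPM in Ad-GFP samples, 89.1, 86.2 and 93.5 CPM in Ad-hHIF2 samples, and 35.2, 27.6 and 36.7 CPM in Ad-hHIF1 samples. Each Ad-hHIF2 sample thus exceeded every other sample by a wide margin, on 2846 to 4285 counts, and the group means were 89.6 ± 3.67 against 37.2 ± 1.99 CPM (SD, n = 3). The log2 fold change over Ad-GFP came to 1.22 ± 0.0771 (SE, edgeR adjusted p = 1.42e-05) and 1.41 ± 0.0970 over Ad-hHIF1 (SE, edgeR adjusted p = 4.83e-06). Leaving out single samples kept the change over Ad-GFP between 1.19 and 1.28, and over the other settings it lay between 1.21 and 1.73 and passed in each. The lowest value, 27.6 CPM, came from Ad-hHIF1 replicate 3, the library with the large share of satellite-like counts.

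Skil, which encodes SnoN, a nuclear corepressor that binds the SMAD complex, did not share this rise. It measured 97.2, 95.7 and 88.1 CPM with Ad-GFP, 101.4, 97.4 and 96.8 with Ad-hHIF2, and 111.4, 101.9 and 100.04 with Ad-hHIF1. The Ad-hHIF2 and Ad-GFP samples overlapped (log2 fold change 0.03, 95% interval -0.13 to 0.19, edgeR adjusted p = 0.802). The Ad-hHIF1 samples all lay above the Ad-GFP samples, by a log2 fold change of 0.13 ± 0.0777 that did not pass (SE, edgeR adjusted p = 0.650). The feedback genes therefore differed from each other in the same cultures, with intervals of their changes that did not meet (1.05 to 1.40 for Smad7).

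**Figure D2:**
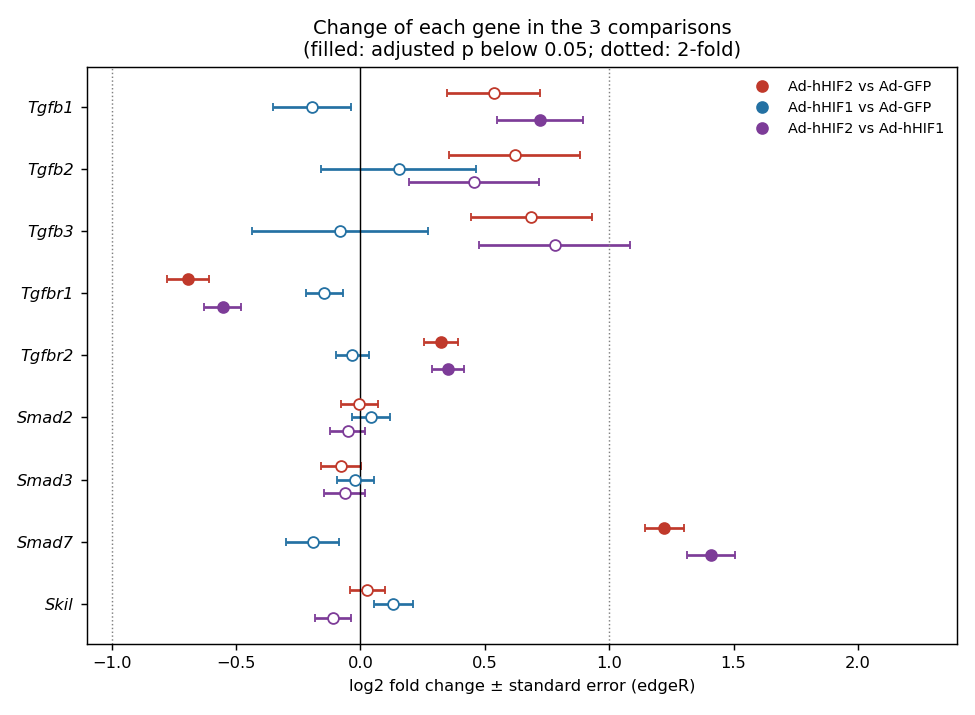
Log2 fold change (edgeR) of each gene in the 3 comparisons, with bars of 1 standard error, filled where the adjusted p was below 0.05. Smad7 stands at 1.22 and 1.41 in the comparisons of Ad-hHIF2 with Ad-GFP and with Ad-hHIF1, Tgfbr1 at -0.69 and -0.55, and every point of Ad-hHIF1 against Ad-GFP is open.

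The next question was whether HIF1 did the same. Against Ad-GFP, no member changed in Ad-hHIF1 organoids: 0 of 9 passed at an adjusted p below 0.05 in edgeR (smallest adjusted p 0.617, Tgfbr1), 0 of 9 had an unadjusted p below 0.05, and DESeq2 passed 0. Of all 15233 genes tested, 0% passed in edgeR, 8.59% had an unadjusted p below 0.05 and 0.945% passed in DESeq2. The log2 fold changes ran from -0.19 (Tgfb1 and Smad7) to 0.15 (Tgfb2), and only Skil had groups that did not overlap, against 16.8% of all genes (10% with Ad-hHIF1 higher). Intervals were tight for the abundant genes, such as -0.19 to 0.12 for Tgfbr2, and wide for the scarce ligands, such as -0.90 to 0.73 for Tgfb3, so changes of Tgfb3 in that range were not detectable here. Each HIF was compared with the same Ad-GFP samples, so a direct test between the HIFs was added. In Ad-hHIF2 against Ad-hHIF1 organoids 4 of 9 members differed (44.4%, against 25.8% of 15556 genes), with Smad7, Tgfbr2 and Tgfb1 higher (3, against 13.7%) and Tgfbr1 lower (1, against 12%). With library totals as the only scale, 4 were higher and 0 lower (13.5% and 5.17% of all genes). On both TPM scales with limma 1 of 9 passed, Smad7 (2.36% and 2.96% of all genes). Again only Smad7 also reached 2-fold (against 6.11% of all genes, 2.42% higher), and 6 of the 9 had groups that did not overlap (against 41.9%), 5 of them with Ad-hHIF2 higher (against 24.2%).

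Levels of different genes were compared only per length, as CPM per kilobase of the effective length that RSEM gave for each sample. In Ad-GFP organoids Smad3 (15.3 ± 0.785), Smad2 (15.3 ± 1.77) and Skil (14.8 ± 0.980) led and did not differ beyond their spread (SD, n = 3, CPM per kilobase). Smad7 (12.4 ± 0.608) and Tgfbr2 (10.9 ± 0.378) followed, then Tgfbr1 (7.39 ± 0.968) and Tgfb1 (7.18 ± 0.877), whose samples overlapped. Tgfb3 (1.24 ± 0.454) and Tgfb2 (0.810 ± 0.539) came last and overlapped as well. In Ad-hHIF2 organoids the order changed at the top, where Smad7 reached 32.4 ± 1.97 CPM per kilobase and stood above Skil (15.5 ± 0.533), Smad3 (15.2 ± 1.99), Tgfbr2 (14.0 ± 0.385) and Smad2 (12.5 ± 1.07), of which Smad2 lay below Tgfbr2 in mean but overlapped it. Tgfb1 then stood at 11.6 ± 2.63 and Tgfbr1 at 4.55 ± 0.355 CPM per kilobase, so that a pair level with each other in the control was separated, with all Tgfb1 samples (9.94 to 14.6) above all Tgfbr1 samples (4.15 to 4.83). Tgfb3 (2.10 ± 0.183) and Tgfb2 (0.678 ± 0.0556) came last here too, but no longer overlapped. Per length Tgfb2 had the lower mean with Ad-hHIF2, the reverse of its CPM, within the wide range of its Ad-GFP samples (0.272 to 1.35). In Ad-hHIF1 organoids the means kept close to the control, with Skil (16.6 ± 0.883) and Smad3 (15.7 ± 1.36) overlapping at the top and Tgfb2 (0.778 ± 0.217) at the bottom.

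**Figure D3:**
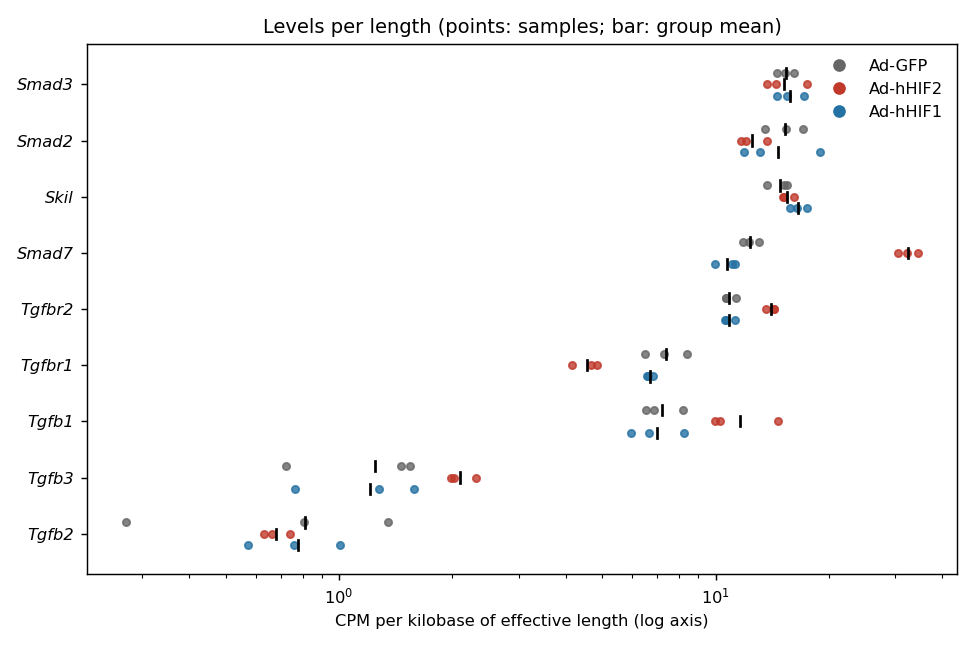
Level per length (CPM per kilobase of effective length, log axis) of each gene in each sample, with a bar at the group mean, ordered by the Ad-GFP mean. Smad7 moves from 12.4 with Ad-GFP to 32.4 with Ad-hHIF2, while Tgfb2 spreads widely within Ad-GFP.

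The wide spread of Tgfb2 per length came with its estimated transcript length, which RSEM weights by isoform and which ran from 1616 to 4820 bases within the Ad-GFP samples on few counts. For Smad7 the mean transcript length was 3215, 3056 and 3172 bases with Ad-GFP and 3055, 2641 and 3039 bases with Ad-hHIF2, so these groups touched without overlap. For Smad2 it was 1767, 1806 and 1542 bases with Ad-GFP and 2285, 1892 and 2161 bases with Ad-hHIF2, again without overlap, while its CPM did not move. The lengths of Tgfb1, Tgfb2, Tgfbr1, Tgfbr2, Smad3 and Skil overlapped between Ad-GFP and Ad-hHIF2, and that of Tgfb3 was the same in every sample. These lengths are given as a description, with no test, and the share of all genes whose lengths separate was not counted. In Ad-hHIF1 samples the lengths of Smad2 (1490 to 2202 bases) spanned those of the controls.

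The pattern of Smad7 over the 9 samples was set beside that of 9252 genes with a mean of at least 5 CPM. The most alike were Arl4c (Pearson r of log2 CPM 0.997), a small GTP-binding protein gene, Hdac5 (0.996), a histone deacetylase gene, and Chd5 (0.996), a chromatin remodeller gene. Arl4c, for example, measured 43.9, 43.6 and 47.0 CPM with Ad-GFP, 78.7, 74.0 and 75.6 with Ad-hHIF2, and 42.2, 35.3 and 42.6 with Ad-hHIF1. Of the members, Tgfbr2 was closest to Smad7 (0.985), and Tgfbr1 ran opposite (-0.905). These values describe 9 libraries in 3 groups and share the group difference, and the correlations carry no test.

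The rest of the pathway was read from 6 lists holding 51 further genes, of which 45 passed the filter between Ad-hHIF2 and Ad-GFP. Of these 45, 16 rose and 8 fell at an adjusted p below 0.05 in edgeR (53.3%, against 29.5% of all genes), with a median log2 fold change of 0.16 against -0.01 over all genes. Past the 2-fold minimum as well were 2 of the 45, against 6.73% of all genes: Fn1 rose, and Fstl3 fell. The calls turned on the scale: with library totals 18 rose and 2 fell (Fstl3 and Cdkn2b, against 23.3% and 5.52% of all genes), and on both TPM scales in limma 5 rose and 0 fell (Thbs1, Fn1, Ctgf, Junb and Cdkn1a), against 6.74% and 7.4% of all genes. Against Ad-hHIF1, 17 rose and 6 fell of 46 tested (50%, against 25.8%). Thbs1 joined the 2 past 2-fold there (3 of 46, against 6.11% of all genes). With library totals 16 rose and 3 fell (13.5% and 5.17% of all genes), and on both TPM scales in limma 2 rose and 1 fell (2.36% and 2.96% of all genes passed). Between Ad-hHIF1 and Ad-GFP, 0 of 44 passed in edgeR, 7 had an unadjusted p below 0.05 (against 8.59% of all genes), and DESeq2 passed 3 without the 2-fold minimum (0.945% of all genes).

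**Figure D4:**
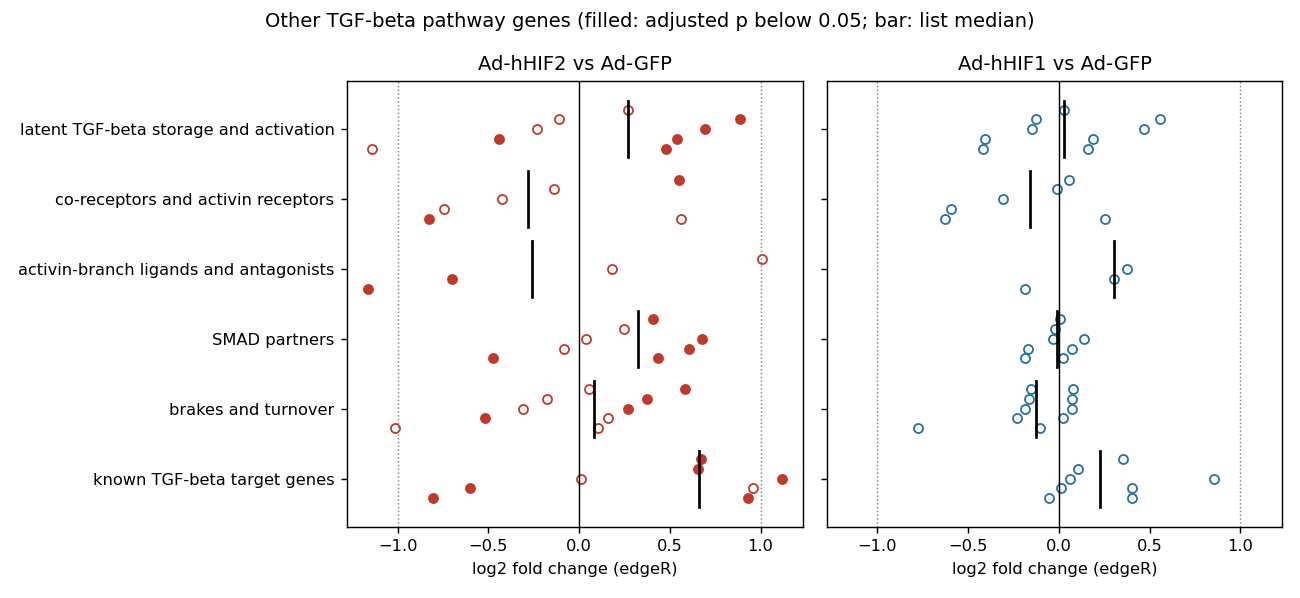
Log2 fold changes (edgeR) of the other pathway genes by list, Ad-hHIF2 against Ad-GFP at left and Ad-hHIF1 against Ad-GFP at right, each point a gene, filled where the adjusted p was below 0.05, with a bar at the list median. The target list has its median at 0.66 with Ad-hHIF2, and no point is filled for Ad-hHIF1.

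The list of known TGF-β target genes had 4 members that rose and 2 that fell of 8 tested (15.9% and 13.6% of all genes). Fn1, the gene of fibronectin, measured 862.2, 821.0 and 811.7 CPM with Ad-GFP and 1983, 1787 and 1822 with Ad-hHIF2, a log2 fold change of 1.12 ± 0.0835 (SE, edgeR adjusted p = 3.64e-05), while the Ad-hHIF1 samples (803.1 to 824.4 CPM) overlapped the controls. The cell cycle inhibitor genes of this list split: Cdkn1a rose by 0.93 and Cdkn2b fell by 0.81 on the log2 scale. Ctgf (0.67) and Junb (0.66) rose as well, and Snai2 fell by 0.60 with an adjusted p of 0.0261 in edgeR, a call lost on leaving out Ad-GFP replicate 1 or 3 or Ad-hHIF2 replicate 3 or 4 (0.0754 to 0.0923) and with library totals (0.249). On log2(TPM + 1) with limma the 4 rises of this list passed, while Cdkn2b (-0.30, adjusted p = 0.55) and Snai2 (-0.028, adjusted p = 0.936) did not. The genes other than Fn1 and Fstl3 were chosen for naming after their values were seen.

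**Figure D5:**
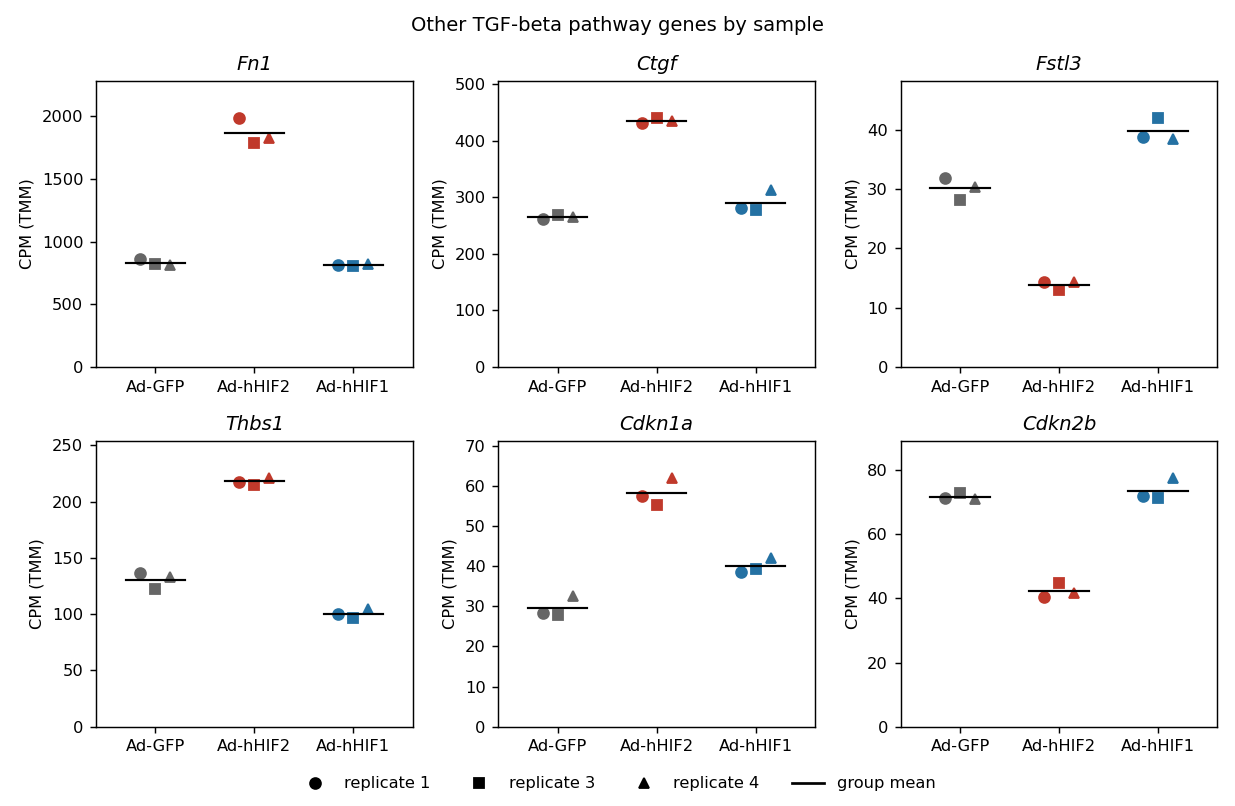
Normalized level (CPM after TMM scaling, linear axes from 0) of 6 other pathway genes in each sample, with a bar at the group mean. Fn1 lies between 1787 and 1983 in Ad-hHIF2 samples and at or below 862.2 in all others, and Cdkn1a and Cdkn2b separate Ad-hHIF2 from the rest in opposite directions.

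Among the genes for storage and release of latent TGF-β, 4 rose and 1 fell of 9 tested (55.6%, against 29.5% of all genes). Thbs1, the gene of thrombospondin, which can release active TGF-β, measured 136.9, 121.9 and 133.0 CPM with Ad-GFP, 217.5, 215.0 and 221.0 with Ad-hHIF2, and 99.8, 96.7 and 104.7 with Ad-hHIF1. The 3 groups did not overlap, with Ad-hHIF1 lowest. Its log2 fold change over Ad-GFP came to 0.69 ± 0.0763 (SE, edgeR adjusted p = 0.000311) and 1.09 ± 0.0685 over Ad-hHIF1 (SE, edgeR adjusted p = 2.62e-06), whereas the difference of Ad-hHIF1 from Ad-GFP did not pass (-0.40, edgeR adjusted p = 0.486). Itgav and Itgb6, whose products form an integrin that frees TGF-β from its latent complex, rose by 0.54 and 0.89 on the log2 scale. Of the latent binding protein genes, Ltbp3 rose (0.48) and Ltbp1 fell (-0.44, but -0.18 with adjusted p = 0.513 with library totals), and Ltbp4 did not pass (-0.23, edgeR adjusted p = 0.140).

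The activin branch, which uses its own receptors but the same SMAD2 and SMAD3, held the one fall past 2-fold. SB431542 was in the medium of all groups, and its action on the activin receptors was not tested here. Fstl3, which encodes a secreted protein that binds and neutralizes activin, measured 31.9, 28.2 and 30.3 CPM with Ad-GFP, 14.3, 13.0 and 14.3 with Ad-hHIF2, and 38.8, 41.9 and 38.4 with Ad-hHIF1. Its log2 fold change relative to Ad-GFP came to -1.17 ± 0.0821 (SE, edgeR adjusted p = 2.84e-05) and -1.54 ± 0.0818 relative to Ad-hHIF1 (SE, edgeR adjusted p = 7.8e-07). With library totals the change relative to Ad-GFP was -0.90, short of 2-fold (edgeR adjusted p = 2.94e-05). In limma it did not pass on log2(TPM + 1) (-0.46, adjusted p = 0.264) or on log2(TPM + 0.1) (-0.69, adjusted p = 0.229). Inhba, the gene of an activin subunit, also fell (-0.70, edgeR adjusted p = 0.00101), but not past the threshold with library totals (-0.45, adjusted p = 0.066) or on log2(TPM + 1) (-0.14, adjusted p = 0.75). Of the activin receptors, Acvr1b (type I) rose by 0.55 and Acvr2b (type II) fell by 0.83 with an adjusted p of 0.0270 in edgeR, a call lost without Ad-GFP replicate 3 or Ad-hHIF2 replicate 3 or 4 (0.0809 to 0.0923) and with library totals (-0.55, adjusted p = 0.175). Fst, of the same list as Fstl3, lay higher in all Ad-hHIF2 samples than in the Ad-GFP samples without passing (1.01, edgeR adjusted p = 0.181). Inhbb, Nodal and Mstn did not pass the filter in any comparison.

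Of the SMAD partners, 4 rose and 1 fell of 8 tested (62.5%, against 29.5%). Tgif2 (0.68) and Tgif1 (-0.48), related corepressor genes, had changes of opposite sign, of which that of Tgif1 did not pass with library totals (-0.22, adjusted p = 0.42) or on log2(TPM + 1) (-0.0042, adjusted p = 1), and Zfyve9, which encodes the SMAD anchor SARA, rose by 0.61 on the log2 scale. Smad4, the shared partner of the receptor-activated SMADs, did not pass (0.04, edgeR adjusted p = 0.782). Of the brakes and turnover genes, 3 rose and 1 fell of 10 tested (40%, against 29.5%). Smurf1, a ubiquitin ligase that acts with SMAD7 on the receptor, measured 93.8, 100.7 and 105.2 CPM with Ad-GFP and 153.7, 152.9 and 156.4 CPM with Ad-hHIF2 (log2 fold change 0.58 ± 0.0767 SE, edgeR adjusted p = 0.000825). Pmepa1, another feedback gene of the pathway, fell by 0.52 on the log2 scale (adjusted p = 0.0190, edgeR, and 0.0755 without Ad-hHIF2 replicate 3), a change of -0.25 with library totals (adjusted p = 0.331) and -0.077 on log2(TPM + 1) (adjusted p = 0.885). On log2(TPM + 1) with limma, of the other pathway genes (members aside) named as changed outside the target list, Thbs1 alone kept its call. Several of the rises that did not pass there were about as large as before or larger, such as Itgav (0.76), Smurf1 (0.76), Ltbp3 (0.82) and Acvr1b (0.53), whereas Tgif2 (0.44), Zfyve9 (0.43), Itgb6 (0.17) and Fstl3 (-0.46, adjusted p = 0.264) had smaller changes.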

How the data were processed

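RNA from 9 duodenal organoid cultures was sequenced, 3 per group, and groups and replicate numbers were taken from the sample labels. The expected counts were estimated by the authors with RSEM after removal of low-quality reads and were deposited without normalization. The deposited tables also hold TPM and, as other columns, transcript lengths and effective lengths computed by the authors' RSEM run. The RSEM version, aligner, genome build, annotation and strandedness are not given in the sources used here.

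Expected counts were rounded, filtered with filterByExpr, scaled by TMM and entered into the quasi-likelihood test of edgeR 4.0.16 (under R 4.3.3 and limma 3.58.1), with Benjamini-Hochberg adjustment over all genes tested. A gene rose or fell where its adjusted p was under 0.05, and the stricter call also needed 2-fold. Comparisons with Ad-GFP used the 6 samples concerned, and that between the HIFs all 9. Standard errors come from the F statistic, and intervals from the t distribution with the degrees of freedom of the same test. The quasi-likelihood test was checked on simulated counts with known changes. CPM use TMM factors over all 9 samples, and library totals ran from 21722618 to 51119041 expected counts. The TMM factor was 1.30 for Ad-hHIF2 replicate 1 and 0.928 to 1.01 for the other libraries. Alternatives were other scaling factors, no scaling factors, other count filters, limma-voom, DESeq2 1.42.0, log2(TPM + 1) or log2(TPM + 0.1) values in limma, the replicate number as a block, other samples in the fit, each sample left out in turn and no fold minimum. No 2 samples of a group were duplicates (chi-square per degree of freedom at least 26.3).

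The members and all gene lists were chosen with earlier results of these data known. Named were all 9 members, up to 4 genes per other list past both thresholds in Ad-hHIF2 against Ad-GFP (largest first), Epas1, Hif1a, Gm10800, Gm26870, and the 3 genes most alike each member past both thresholds, among genes with a mean of at least 5 CPM. Other pathway genes and markers were named after their values were seen. Of the lists, Ccn2 is in the files as Ctgf, and 1 gene is not reported here and is left out of the lists' counts. Exon overlaps were read from GENCODE M21 by Ensembl identifier, and promoters from RefSeq (GRCm38.p6) by symbol, for 5 members. Promoters of the other members, Smad7 among them, are not reported here. Python 3.11.15, pandas 2.3.3 and matplotlib 3.10.9 were used for sequences and figures.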

Additional observations from a re-analysis of the deposited data

How the results depend on the processing

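The count of members past both thresholds was the same in all settings that kept the 2-fold minimum (1, 0 and 1 for Ad-hHIF2 against Ad-GFP, Ad-hHIF1 against Ad-GFP and Ad-hHIF2 against Ad-hHIF1). With no fold minimum it was 3 and 4 in the comparisons of Ad-hHIF2, and the other pathway genes numbered 24 and 23 in place of 2 and 3. On log2(TPM + 1) and log2(TPM + 0.1), 4 and 5 other pathway genes were past both thresholds in Ad-hHIF2 against Ad-GFP, while those with an adjusted p below 0.05 numbered 5 on each scale in place of 24. Scale mattered: over all genes the median log2 change of Ad-hHIF2 against Ad-GFP was -0.01 by TMM, 0.24 with library totals, 0.12 and 0.30 on the TPM scales and -0.13 without a filter, and 435 higher and 574 lower genes became 800 and 440, 196 and 41, and 644 and 126. Some small changes turned in sign between settings. In Ad-hHIF2 against Ad-GFP, Smad2 was 0.26 with library totals, 0.0269 without a filter, 0.0855 on log2(TPM + 1) and 0.11 on log2(TPM + 0.1), and Smad3 was 0.19 with library totals, 0.28 on log2(TPM + 1) and 0.37 on log2(TPM + 0.1). With single samples left out, Smad2 ran from -0.0488 to 0.0282 and Skil from -0.0028 to 0.0502. In Ad-hHIF1 against Ad-GFP, library totals gave 0.0478 for Tgfbr2 and 0.0569 for Smad3. On log2(TPM + 1), Tgfb1 was 0.055, Tgfb3 0.0167, Tgfbr1 0.0086, Tgfbr2 0.0874 and Smad3 0.13, and on log2(TPM + 0.1), Tgfb1 was 0.10, Tgfb3 0.0786, Tgfbr1 0.0181, Tgfbr2 0.14 and Smad3 0.18. With single samples left out, Tgfb2 ran from -0.0084 to 0.32, Tgfb3 from -0.34 to 0.16, Smad2 from -0.0017 to 0.0737, Tgfbr2 from -0.0537 to 0.0011 and Smad3 from -0.0702 to 0.0128. In Ad-hHIF2 against Ad-hHIF1, library totals gave 0.14 for Smad2, 0.14 for Smad3 and 0.0775 for Skil, log2(TPM + 1) gave 0.0309, 0.15 and 0.12, and log2(TPM + 0.1) gave 0.0384, 0.19 and 0.14. The causes were not tested.

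Same-numbered samples of Ad-hHIF2 and Ad-GFP deviated together only weakly (correlations 0.0731 to 0.158, against -0.165 to 0.0858 for other pairs), so the replicate numbers were not taken as pairs. With the replicate number as a block, 5 members had an adjusted p below 0.05 in Ad-hHIF2 against Ad-GFP in place of 3 (30.9% of all genes in place of 29.5%), with Tgfb1 (0.0028) and Tgfb3 (0.037) added, and 1, 0 and 1 members were past both thresholds as before. Of the members, Tgfb2 (41 to 129 counts per sample) and Tgfb3 (48 to 325) had the fewest counts. Whether depth or the spread between cultures sets their errors was not tested.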
